A study of Rattus norvegicus with 14 samples.

Results

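The comparison set blood mononuclear cells of arthritic rats after 34 days of needle stimulation (AP, 3 arrays) against those of healthy rats after 34 days of the same stimulation (HAP, 3 arrays). It used 6 of the 14 arrays of the series, chosen by their titles, and asked how the blood cells of rats with and without arthritis differed once both had been stimulated. All animals were female Wistar rats. AP rats carried collagen-induced arthritis, raised according to the study's methods by immunisation with bovine type II collagen in Freund's adjuvant and a booster, and HAP rats were healthy. Stimulation consisted of thin steel needles inserted under the skin of the back and hind limbs and twirled. The other arrays came from arthritic rats given methotrexate, a folate antagonist, with stimulation for 34 days (MTXAP, 3 arrays) and from rats sampled before any therapy, either arthritic (RA, 2 arrays) or healthy (NORA, 3 arrays). The study's own codes (MS_A, NOCIAMS_A, MTXMS_A, CIA_B and NOCIA_B) were matched to these labels by reading. The series analysed here holds no unstimulated rats of day 34, and AP and HAP share the therapy and the day, and arthritis cannot be told apart from the immunisation that raised it.

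Mononuclear cells are the lymphocytes and monocytes that float on a density gradient, and platelets and young red cells often come along. Natural killer (NK) cells are lymphocytes that kill through perforin, granzymes and Fas ligand, and they read their targets through lectin-like and immunoglobulin-like receptors. In arthritis, monocytes, T cells and NK cells leave the blood for the inflamed joint along chemokine and integrin cues, while platelets and inflammatory cytokines circulate.

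Each array gave 1 signal per probe set, and all differences below are AP minus HAP on the log2 scale unless another pair is named. A level is a log2 signal, and levels of different genes are not comparable on this array. The median signal was 119, 131 and 104 on the AP arrays and 126, 127 and 124 on the HAP arrays. The ratio of the 3′ to the 5′ probe set of beta-actin, a gauge of RNA length, was 2.62, 2.44 and 2.69 on the AP arrays and 4.36, 3.35 and 4.13 on the HAP arrays, without overlap, and its part in the results was not tested. The same ratio for Gapdh overlapped, at 1.00, 1.05 and 1.18 on AP and 1.13, 1.03 and 1.07 on HAP arrays. Within the groups, no pair of arrays correlated below 0.914 (AP) or 0.898 (HAP). Cells of the labelled kind were present, with the T cell receptor chain Cd3g at 13.71, 13.50 and 13.29 on AP arrays and 13.70, 14.17 and 13.73 on HAP arrays.

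No probe set passed the test between AP and HAP. Of 18515 probe sets tested with limma over all 14 arrays, 0 reached an adjusted p of 0.05 after the Benjamini-Hochberg step (0% called), and the lowest adjusted p was 0.165. At an unadjusted p of 0.05, 1052 probe sets were counted (5.68%), close to the share that such a threshold gives by itself, with 372 higher (2.01%) and 680 lower (3.67%) in AP. With the study's thresholds, unadjusted p of 0.05 and fold of 2, 347 probe sets were counted (1.87%), 150 higher (0.81%) and 197 lower (1.06%). That split depended on the scaling: it was 268 higher and 143 lower with each array centred on its median, and 207 higher and 145 lower after quantile normalization. Centring added the same amount to every AP minus HAP difference, and the median over all genes went from -0.03 to 0.06. Arrays did not overlap at 3306 probe sets (17.9%), with AP above at 7.08% and AP below at 10.8%. Every AP minus HAP difference that follows therefore describes these 6 rats. The SE given with a difference and the p-values draw on the spread within all groups of the 14 arrays, not within AP and HAP alone. No gene named here had an adjusted p below 0.636 with limma.

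Genes of NK and cytotoxic cells stood higher in AP. Of the 28 genes written for this list, 21 were measured, and 19 of them lay above 0 against 45.8% of all 10107 genes. Their median was 0.74, against -0.03 over all genes. At an unadjusted p of 0.05, 7 were higher (33.3%), where 1.89% of all genes were, and 0 were lower, where 2.49% of all genes were. In the blood of MTXAP rats, set against the same HAP arrays, the median was 0.07 with 12 of 21 above 0, and in RA minus NORA it was 0.22 with 15 above 0. In bulk cells such as these, more cells of a type and more RNA per cell cannot be told apart.

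Among the receptors, Ncr1, the activating receptor NKp46 that marks NK cells, had levels of 9.12, 10.18 and 10.27 on AP arrays and 7.61, 8.95 and 8.29 on HAP arrays. All 3 AP arrays lay above all HAP arrays, with a difference of 1.58 ± 0.54 (SE), or 2.98-fold. The rat NKR-P1 receptors, which bind C-type-lectin-like ligands, had the same order. Klrb1b had 8.91, 10.47 and 9.55 on AP arrays and 8.70, 8.87 and 8.48 on HAP arrays (0.96 ± 0.38), and Klrb1c had 10.95, 11.45 and 11.10 on AP arrays and 9.90, 10.62 and 10.52 on HAP arrays (0.82 ± 0.36). Both separated the groups, Klrb1b by a narrow margin on AP replicate 1. Klrb1a was measured at 11.30, 12.50 and 12.14 in AP against 11.002, 11.61 and 10.99 in HAP, where AP replicate 1 fell inside the range of HAP. The same was true of Klre1, a further lectin-like receptor, at 9.79, 11.03 and 10.77 in AP against 9.32, 9.85 and 9.82 in HAP (0.87 ± 0.35). Klra5, a Ly49 family receptor outside the list, stood at 8.71, 9.31 and 9.86 in AP and 7.69, 7.81 and 8.53 in HAP (1.28 ± 0.40), with no overlap.

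The proteins that kill target cells lay in the same order. Faslg, the ligand that triggers death through Fas, had levels of 9.22, 10.51 and 9.88 in AP and 8.69, 9.23 and 8.94 in HAP (0.92 ± 0.31). Gzma, a granzyme protease, reached 11.83, 13.60 and 12.76 in AP against 11.28, 12.14 and 11.66 in HAP (1.04 ± 0.47). AP replicates 2 and 3 were above every HAP array for both genes, and AP replicate 1 lay within the HAP range. Perforin, Prf1, had 12.55, 13.60 and 13.50 in AP and 12.25, 12.82 and 12.36 in HAP (0.74 ± 0.35). Gzmb had 11.11, 12.41 and 12.42 in AP and 10.22, 11.62 and 11.04 in HAP (1.02 ± 0.52), and its second probe set differed by 1.01. Both again placed AP replicate 1 among the HAP arrays. Serpinb9, an inhibitor that shields cells from granzyme B, had 10.81, 11.53 and 11.76 in AP and 9.68, 9.68 and 10.45 in HAP, a difference of 1.43 ± 0.41 with no overlap (second probe set 0.94). The members below 0 were Ctsw, a cathepsin of cytotoxic cells, at -0.38, and Ncr3, the receptor NKp30, at -0.06.

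**Figure D1:**
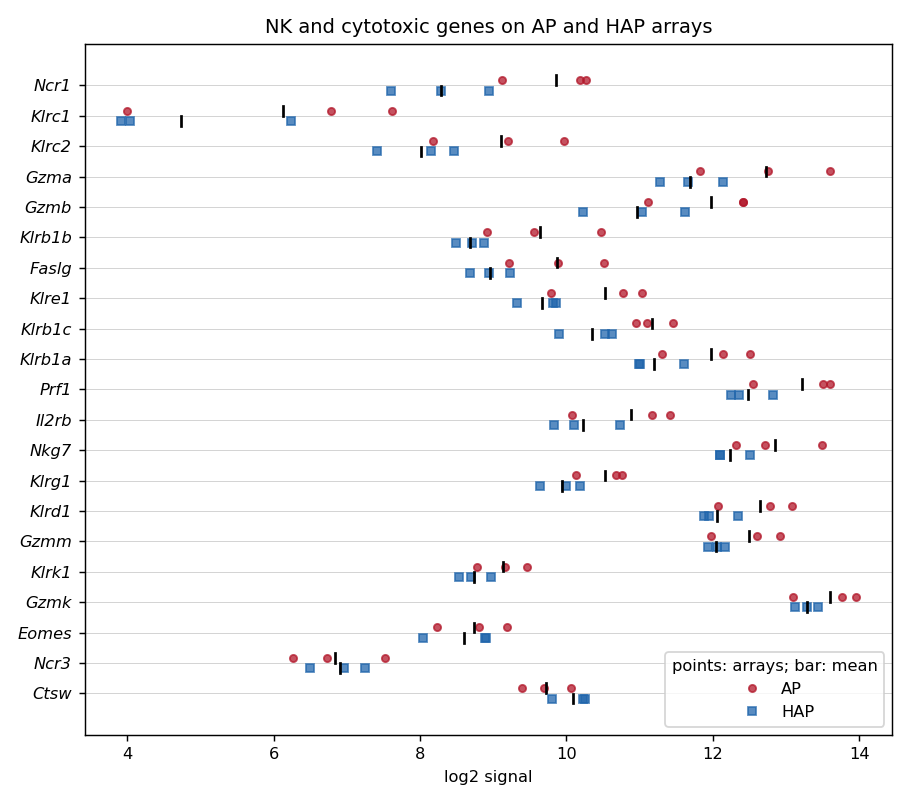
Log2 signal (x axis) of the 21 measured NK and cytotoxic genes (y axis, ordered by AP minus HAP) on the 3 AP arrays (circles) and the 3 HAP arrays (squares), with black bars for the group means. The AP mean lies above the HAP mean for 19 genes, Ncr1 differs by 1.58, and the lowest AP point often falls among the squares.

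The mean of the list's genes on each array, after each gene is centred over the 14 arrays, was -0.26, 0.93 and 0.53 in AP and -0.59, -0.06 and -0.24 in HAP, or 0.40 ± 0.61 and -0.29 ± 0.27 (SD, n = 3 each). These scores overlapped through AP replicate 1. Without AP replicate 2 the median of the list was 0.52, and without AP replicate 1 it was 1.07, with 19 genes above 0 in both cases. The summed signal of the 21 genes ran between 45070 and 96714 on AP arrays and between 38476 and 54272 on HAP arrays.

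T cell genes did not share that direction. Of 21 measured T cell genes, 8 lay above 0, the median was -0.06, and 0 were past the unadjusted threshold in either direction. Lef1, which marks T cells that have not met antigen, had levels of 12.61, 11.38 and 12.20 in AP and 12.76, 13.29 and 12.63 in HAP (-0.83 ± 0.41), and its second probe set differed by -0.92. AP was below HAP on all its arrays for Lef1. The zeta chain Cd247 differed by -0.54 and Cd3g by -0.36, while Cd8b, a chain of the CD8 coreceptor of killer T cells, differed by 0.69, each with overlap. The summed signal of the list was 80127 to 90994 in AP and 79927 to 116400 in HAP. Centred on the array medians, the T cell median was 0.04, against 0.06 over all genes. With 1 array left out, the T cell median lay between -0.18 (without HAP replicate 1) and -0.01 (without HAP replicate 2).

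B cell genes were spread around 0, with 6 of 15 above it and a median of -0.02. Single arrays moved this, to 12 of 15 (median 0.24) without AP replicate 3 and 5 of 15 (-0.31) without AP replicate 1. With centred arrays the B cell median was 0.07, against 0.06 over all genes. Stap1, a signalling adaptor of the B cell receptor, stood apart, at 8.68, 8.81 and 8.47 in AP and 7.88, 7.59 and 8.10 in HAP (0.79 ± 0.24), without overlap, and its second probe set differed by 0.88. In MTXAP minus HAP, which shares the HAP arrays, Stap1 differed by -0.66. MHC class II genes, which present antigen on B cells and monocytes, were lower for 7 of 8 members, with a median of -0.26, the exception being Ciita, their activator (0.34). The antigen presenting chain RT1-Ba had 12.59, 11.58 and 11.16 in AP and 13.50, 12.01 and 12.08 in HAP (-0.76 ± 0.56), with overlap. Without HAP replicate 1, which had the highest RT1-Ba level, the class II median was -0.01 with 4 of 8 above 0.

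Genes that guide leukocytes out of and back into blood split. Cxcr4, the receptor of the homing chemokine Cxcl12, had 14.19, 13.55 and 13.36 in AP and 14.56, 14.67 and 14.44 in HAP, a difference of -0.86 ± 0.27. AP arrays were all below HAP arrays, and its other probe sets differed by -0.82 and -0.79. S1pr1, the sphingosine receptor by which lymphocytes leave lymph nodes, had 14.84, 14.34 and 14.29 in AP and 15.08, 15.18 and 14.83 in HAP (-0.54 ± 0.22), where AP replicate 1 reached the lowest HAP array. Itgae, the integrin chain CD103, had 8.73, 8.32 and 8.39 in AP and 8.93, 9.33 and 8.98 in HAP (-0.60 ± 0.24), without overlap. Over the whole list of 23 measured adhesion and migration genes, 13 lay above 0 and the median was 0.04, or -0.08 without HAP replicate 2 and 0.25 without AP replicate 1. Itgal, the LFA-1 chain CD11a, had the widest difference, 5.51 ± 2.25, but its levels of 12.95, 13.56 and 13.74 in AP stood beside 12.56, 5.08 and 6.10 in HAP, so HAP replicate 1 was close to the AP arrays and the value rested on the other HAP arrays.

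Monocyte genes were higher for 13 of 18 members, with a median of 0.23, while MTXAP minus HAP had a median of -0.53 and 2 above 0. RA minus NORA had a median of 0.21 for this list, with 14 above 0. Tlr2, a sensor of bacterial lipoproteins, had 11.05, 10.97 and 11.35 in AP and 10.17, 9.62 and 10.80 in HAP (0.93 ± 0.45), without overlap. Fcgr3a, the antibody receptor CD16 that NK cells also carry, had 11.82, 12.79 and 12.17 in AP and 11.39, 11.32 and 11.80 in HAP (0.76 ± 0.31), also without overlap. The direction of the list was held by single arrays, since the median was 0.04 without AP replicate 3 and -0.03 without HAP replicate 2. Lyz2, the lysozyme of monocytes, stood apart from it with -0.34 ± 0.23. The Toll-like receptor and NF-kB list, by contrast, had 9 of 24 above 0 and a median of -0.17. Its member Tlr1, the partner of Tlr2, had 8.70, 8.74 and 9.73 in AP and 8.03, 7.97 and 8.38 in HAP (0.93 ± 0.33), without overlap, and was the member farthest above 0.

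In RA minus NORA, 22 of 31 interferon response genes lay above 0, with a median of 0.18. Interferon response genes lay above 0 for 24 of 31 members in AP minus HAP, with a median of 0.27, against 10 of 31 and a median of -0.14 in MTXAP minus HAP. Their scores were 0.24, 0.30 and 0.28 in AP and 0.02, -0.04 and 0.17 in HAP, so that all AP arrays were above all HAP arrays. Among the 36 lists this also held for leukocyte adhesion, T cell costimulation, and liver, muscle and skin genes. Clock genes had AP below, and the scores of the other lists overlapped. Igtp, an interferon-induced GTPase, had 9.15, 9.48 and 9.71 in AP and 8.73, 8.97 and 9.12 in HAP (0.51 ± 0.20), where the groups were adjacent but separate. Gbp2, a guanylate binding protein of the same response, had 10.61, 11.57 and 12.04 in AP and 10.32, 10.14 and 10.91 in HAP (0.95 ± 0.49), with overlap. The proteasome subunit Psmb9 differed by 0.44 and the GTPase Irgm by 0.78. Without HAP replicate 1 the median was 0.16 and 22 members lay above 0.

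**Figure D2:**
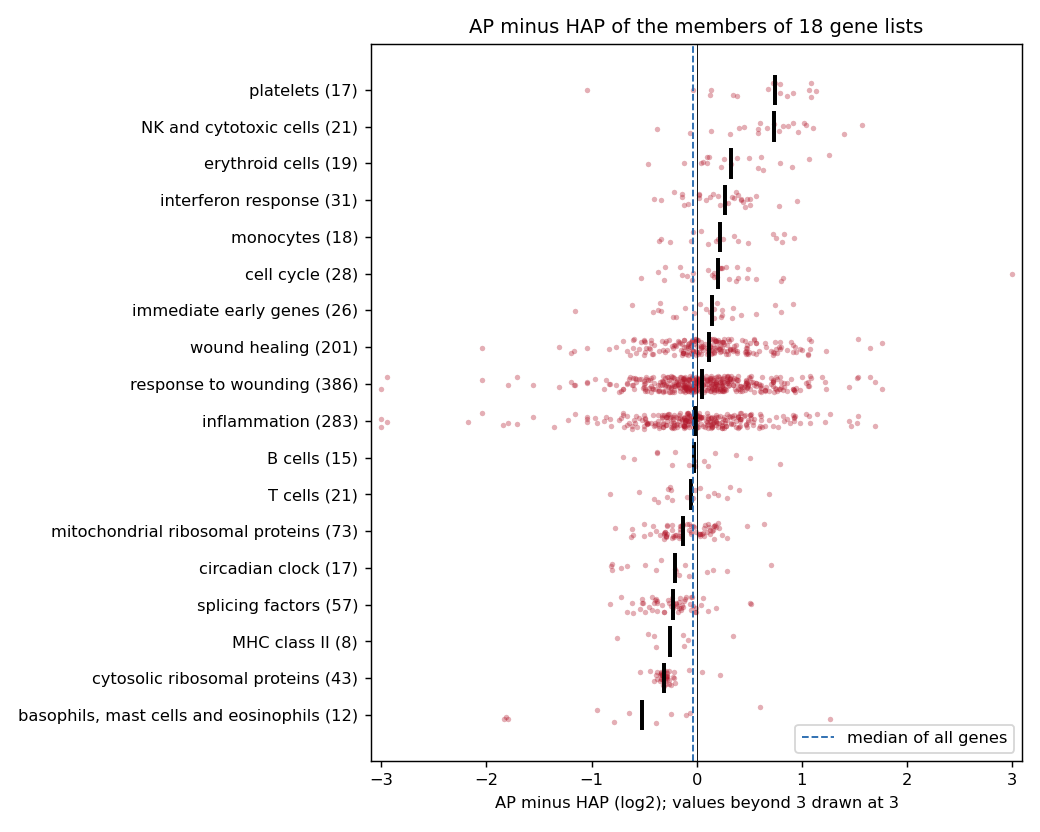
AP minus HAP in log2 units (x axis) for every measured member of 18 gene lists (y axis, members in brackets), with a black bar at each list's median and a dashed line at the median of all genes, -0.03. Platelet and NK genes have medians of 0.74, cytosolic ribosomal protein genes cluster near -0.31, and genes differing by more than 3 are drawn at 3.

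Platelet genes also stood higher in AP. Of 17 measured, 15 lay above 0 with a median of 0.74, and AP arrays were all above HAP arrays for 7 (41.2%), against 7.3% of all genes, yet 0 reached the unadjusted threshold of 0.05. That threshold used the spread within all groups. The SD of the platelet score was 0.38 in AP and 0.25 in HAP, but 0.56 in MTXAP and 1.07 in NORA. Gp9, a chain of the von Willebrand factor receptor, had 12.16, 12.46 and 13.27 in AP and 11.53, 11.15 and 11.80 in HAP (1.14 ± 0.67). Mmrn1, a granule protein, had 12.01, 12.28 and 13.27 in AP and 11.41, 11.08 and 11.82 in HAP (1.09 ± 0.61). Rgs18, a brake on platelet receptors, had 13.61, 14.09 and 14.17 in AP and 13.12, 12.98 and 13.40 in HAP (0.79 ± 0.47). AP replicate 3 was the highest array for all of them and no HAP array reached the AP range. The granule chemokine Pf4 differed by -0.04, and Selp, P-selectin, by -1.04, with overlap. The platelet score was -0.10, 0.22 and 0.67 in AP and -0.35, -0.54 and -0.05 in HAP, and the summed signal 221720 to 279990 in AP and 184680 to 215250 in HAP. Without AP replicate 3 the platelet median was 0.47 with 16 above 0.

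The platelet difference ran the other way before therapy. In RA minus NORA, which shares no array with AP and HAP, the platelet median was -1.62 with 1 of 17 above 0. The difference of Gp9 was -1.88 ± 0.75 there, and the difference between the comparisons was 3.02 ± 1.00, which did not pass (adjusted p of 0.36 with limma). Those of Mmrn1 and Rgs18 in RA minus NORA were -1.65 and -1.69. In MTXAP minus HAP all 17 lay above 0, with a median of 0.44, on the same HAP arrays. RA rests on 2 arrays, and the platelet scores of the NORA arrays were far apart, at -0.72, 0.93 and 1.27.

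Erythroid genes had a median of 0.33, with 17 of 19 above 0, against -1.38 and 0 of 19 in RA minus NORA and -1.15 in MTXAP minus HAP. The erythroid scores were 0.57, 1.07 and -0.42 on AP arrays, 0.60, 0.93 and -4.23 on MTXAP arrays and -0.12, 0.11 and 0.06 on HAP arrays, so that the -1.15 rests on MTXAP replicate 3. Before therapy they were -1.03 and 0.06 on RA arrays and 0.20, -0.08 and 2.27 on NORA arrays, where NORA replicate 3 stood apart. Epor, the erythropoietin receptor, had 8.21, 8.84 and 8.90 in AP and 7.60, 7.47 and 7.68 in HAP (1.07 ± 0.36). AP lay above HAP on all arrays, but the other probe sets of Epor differed by 0.27 and -0.24. Rhag, a membrane channel of red cells, had 8.80, 9.73 and 9.62 in AP and 8.47, 7.89 and 8.03 in HAP (1.26 ± 0.58), again without overlap. The globin Hbb differed by -0.46 ± 0.85. The list's median turned to -0.02, with 9 of 19 above 0, when AP replicate 2 was left out.

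**Figure D3:**
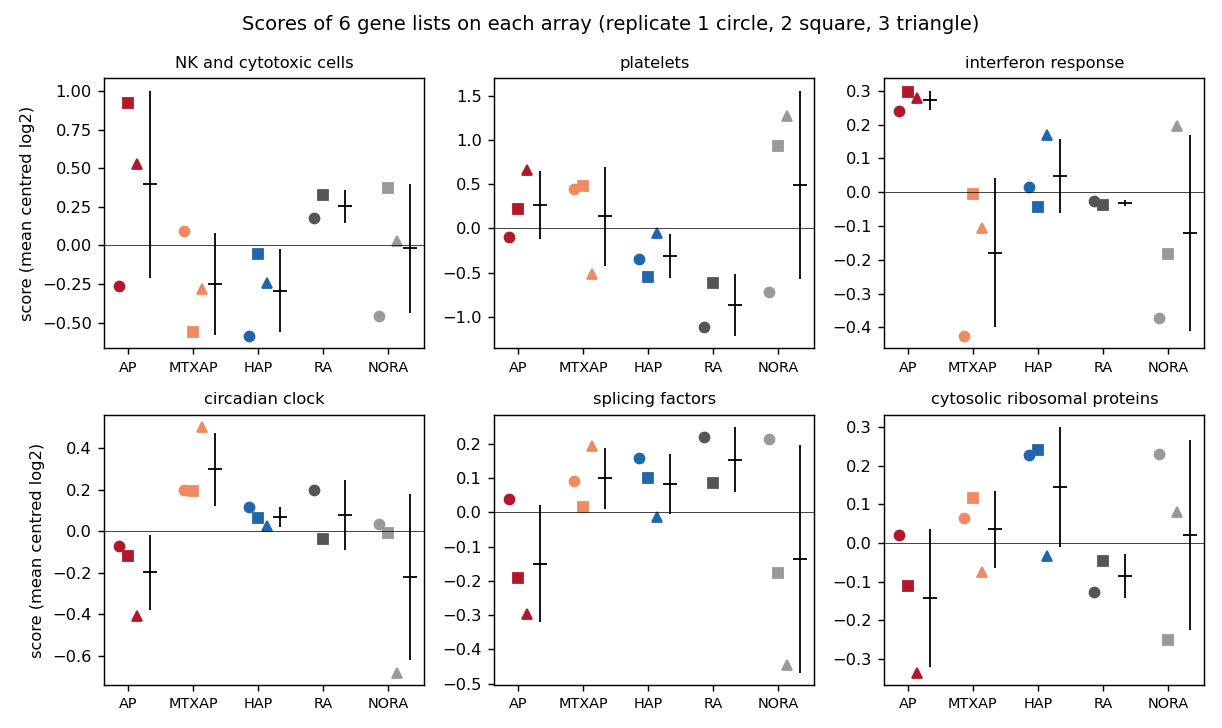
Score of 6 gene lists (y axis, mean log2 signal of the members after centring each gene over the 14 arrays) on each array of the AP, MTXAP, HAP, RA and NORA groups (x axis), with symbols for replicate numbers and bars for the mean ± SD. Interferon scores of AP (0.24 to 0.30) lie above those of HAP, circadian scores of AP lie below those of HAP, and NK scores overlap through AP replicate 1 at -0.26.

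Genes of basophils, mast cells and eosinophils lay below 0 for 10 of 12 members, with a median of -0.52. Mcpt1, a mast cell chymase, had 5.05, 7.01 and 7.88 in AP and 8.72, 8.28 and 8.39 in HAP (-1.81 ± 0.62), without overlap. Cpa3, the carboxypeptidase of mast cell granules, had 7.66, 7.22 and 8.03 in AP and 11.85, 7.21 and 9.34 in HAP (-1.83 ± 1.31), and most of that difference came from HAP replicate 1. Leaving out 1 array moved the median of the list between -0.85 (without AP replicate 2) and -0.34 (without AP replicate 1).

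Clock genes, which drive daily rhythms in most cells, were lower in AP for 13 of 17 members, with a median of -0.21. That median lay between -0.41 (without HAP replicate 2) and -0.30 when 1 array was left out. With centred arrays it was -0.11, against 0.06 over all genes. AP arrays were all below HAP arrays for 5 of the clock genes (29.4%), against 9.92% of all genes. The scores of the list were -0.07, -0.12 and -0.41 in AP and 0.12, 0.06 and 0.02 in HAP, without overlap, as in the lists named with the interferon genes. Cry2, a repressor of the clock, had 9.91, 9.23 and 9.06 in AP and 10.51, 10.31 and 9.79 in HAP (-0.80 ± 0.35), where AP replicate 1 lay above HAP replicate 3. Nr1d2, the repressor REV-ERB beta, had 11.80, 11.07 and 10.59 in AP and 12.06, 11.92 and 11.64 in HAP (-0.72 ± 0.40), with overlap and with 3 probe sets between -0.79 and -0.71. Nfil3, which opposes the PAR-type activators and is also needed for NK cell development, lay on the other side, at 10.12, 10.78 and 10.92 in AP and 9.81, 10.01 and 9.88 in HAP (0.71 ± 0.28), with no overlap. The hour of blood sampling was not given in the sources used here. In MTXAP minus HAP the median was 0.15, and in RA minus NORA 0.01.

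Cytosolic ribosomal protein genes, which code for the protein part of the ribosome, were lower in AP almost throughout. Of 43 measured, 41 lay below 0, where 54.2% of all genes did, and the median was -0.31. AP was below HAP on all arrays for 12 of them (27.9%), against 9.92% of all genes. At an unadjusted p of 0.05, 1 was lower (2.33%), where 2.49% of all genes were, and 0 were higher. The list's scores were 0.02, -0.11 and -0.34 in AP and 0.23, 0.24 and -0.03 in HAP, with overlap. Messenger RNAs of ribosomal proteins are known for a run of pyrimidines at the start, by which the growth-sensing kinase mTOR controls their translation. Start regions follow for the 4 ribosomal genes of lowest p and for Rpl19, Rps24, Rpl5 and Rpl34, picked for having a pyrimidine run. Each is given with 15 bases before and 15 from the annotated start. The longest run of C and T of at least 7 bases is in capitals (RefSeq, GRCr8, 5′ to 3′ on the gene's strand).
Rplp0 (chr12:46718376-46718405, minus strand): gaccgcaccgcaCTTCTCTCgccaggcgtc
Rps15a (chr1:181860270-181860299, minus strand): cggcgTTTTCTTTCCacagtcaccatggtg
Rpl35a (chr11:81235007-81235036, minus strand): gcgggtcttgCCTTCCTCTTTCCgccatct
Rpl13a (chr1:104748899-104748928, minus strand): CCTCTTCCTTTCCTaggcggctgccgaaga
Rpl19 (chr10:83519049-83519078, plus strand): cgcgaccagcaagCTCTTTCCTTTCgctgc
Rps24 (chr16:96502-96531, plus strand): tgagcggTCCTCTTTTCCTCCTTTacagct
Rpl5 (chr14:1995211-1995240, minus strand): aCTCTCTTTCCCacgtcgcttgcgtcctgg
Rpl34 (chr2:221962269-221962298, minus strand): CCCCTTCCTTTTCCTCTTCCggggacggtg

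Of the 43 genes, 39 matched the start table, and 29 of those (74.4%) held such a run in the 30 bases, read on the gene's strand only. The share was 17.8% over all 27457 genes of the table, 22% of mitochondrial ribosomal, 18.2% of splicing and 12.5% of NK genes. A run counted anywhere in the window, and those of Rps15a, Rpl13a and Rpl5 ended before the annotated start. Such runs would lie outside the annotated messenger RNA. Rpl26 and Rpl11 had none in the window and are shown for contrast.
Rpl26 (chr10:54109677-54109706, plus strand): ctcgtgtcaacttacagaaccggaagtcgc
Rpl11 (chr5:153560788-153560817, minus strand): ggggacttgaagcttgtttggtgctgggga
These are descriptions of the annotated starts, and translation was not measured.

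Rplp0, a stalk protein of the large subunit, had 14.98, 14.93 and 14.95 in AP and 15.52, 15.50 and 15.17 in HAP. AP lay below HAP on all arrays by a small step, -0.44 ± 0.16. Rps15a differed by -0.54, Rpl35a by -0.40 and Rpl13a by -0.38. In MTXAP minus HAP the list's median was -0.11 with 1 member above 0, and in RA minus NORA it was -0.06 with 17 above 0. With arrays centred on their median the ribosomal median was -0.21, while that of all genes moved from -0.03 to 0.06. The size of the ribosomal difference depended on quantile normalization, after which the median was -0.08, with 37 below 0, against -0.005 over all genes. Without AP replicate 3 the ribosomal median was -0.19. The genes stand at the top of the intensity range. Of 131 genes with a mean log2 signal over 14, 38 were ribosomal and the median was -0.26, while 51 of the 93 others lay below 0, with a median of -0.04.

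**Figure D4:**
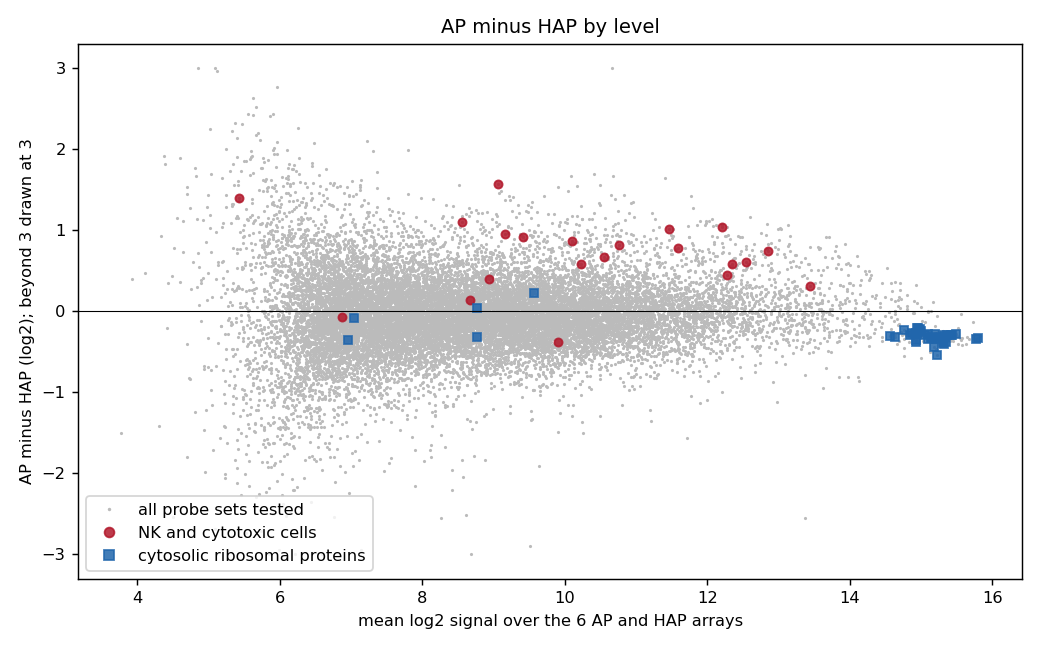
AP minus HAP in log2 units (y axis) against the mean log2 signal over the 6 arrays (x axis) for all tested probe sets (dots), NK and cytotoxic genes (circles) and cytosolic ribosomal protein genes (squares). Most ribosomal genes sit at the bright end near -0.31, and NK genes lie above 0 across a broad range of levels.

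Splicing factors, which cut introns from messenger RNA, were lower for 51 of 57 members, with a median of -0.22, and AP was below HAP on all arrays for 14 (24.6%). Over all genes, 54.2% lay below 0 and 9.92% had AP below HAP on all arrays. At an unadjusted p of 0.05, 3 members were lower (5.26%, against 2.49% of all genes) and 1 was higher (1.75%, against 1.89%). The list's scores were 0.04, -0.19 and -0.30 in AP and 0.16, 0.10 and -0.01 in HAP, with overlap. Hnrnpul1, an RNA-binding nuclear protein, had 8.59, 8.69 and 8.61 in AP and 9.16, 9.50 and 9.03 in HAP (-0.60 ± 0.19), without overlap. Prpf3 and Prpf38b, parts of the spliceosome, differed by -0.54 and -0.45, and the SR protein Srsf9 by 0.51. In RA minus NORA the list's median was 0.31 with 49 above 0, and in MTXAP minus HAP it was 0.05. Before therapy the splicing scores were 0.22 and 0.09 on RA arrays and 0.21, -0.18 and -0.45 on NORA arrays, with overlap. Genes of the mitochondrial ribosome had a median of -0.13, with 46 of 73 below 0 (-0.04 without AP replicate 1 and -0.03 with centred arrays), and 65 of 73 above 0 in RA minus NORA (median 0.29). The mitochondrial ribosomal scores were 0.12 and 0.12 on RA arrays and 0.05, -0.16 and -0.33 on NORA arrays, NORA replicate 3 being the lowest. Respiratory chain and proteasome genes were near the median of all genes, with 43 of 82 (median 0.02) and 15 of 41 (median -0.05) above 0. Without AP replicate 3 the splicing median was -0.12 with 45 below 0. Centred on the array medians it was -0.13, against 0.06 over all genes.

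Genes of the cell cycle and of rapid stimulation gave single cases rather than a shared direction. Of 28 cell cycle genes, 19 lay above 0 (median 0.21), and 12 of 28 (median -0.14) without AP replicate 2. Bub1b, a kinase of the mitotic checkpoint, had 5.67, 7.01 and 6.59 in AP and 2.56, 3.50 and 3.81 in HAP (3.14 ± 0.60, adjusted p of 0.636 with limma), all below the median signal of their arrays, and differed by 2.28 in MTXAP minus HAP. The immediate early gene Ier2 had 12.46, 12.04 and 12.39 in AP and 11.79, 11.18 and 11.68 in HAP (0.75 ± 0.30). Fos, part of the AP-1 factor, had 12.50, 12.75 and 13.52 in AP and 11.79, 11.90 and 12.33 in HAP (0.92 ± 0.57). Its dimmer probe set differed by -0.08, with overlap. Ier2 and the brighter Fos probe set separated the groups. The list of 26 had 16 above 0 and a median of 0.14, which was 0.01 with 13 above 0 without HAP replicate 2.

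In cytokine and purine signalling, single members stood apart from their lists. Of 27 cytokine and chemokine genes, 12 lay above 0 with a median of -0.09, or -0.21 without HAP replicate 2 and -0.01 without HAP replicate 3. Ccl3, a chemokine of activated monocytes, had 10.79, 10.83 and 10.33 in AP and 11.85, 11.02 and 11.18 in HAP (-0.70), without overlap. Il1b differed by -0.50 ± 0.62, S100a8 by -0.14 and its partner S100a9 by -0.37, each with overlapping arrays. Among adenosine and purinergic genes, 12 of 20 lay above 0 with a median of 0.25 (0.14 without HAP replicate 2, 0.38 without AP replicate 1). The ADP receptor P2ry1, found on platelets, had 7.58, 7.83 and 8.46 in AP and 6.42, 7.0 and 6.76 in HAP (1.23 ± 0.51), without overlap. Adk, the kinase that removes adenosine, had 12.27, 12.60 and 12.71 in AP and 11.39, 11.74 and 11.87 in HAP (0.86 ± 0.44), also without overlap, and differed by -1.17 in RA minus NORA. Adora2a, the adenosine receptor that raises cyclic AMP in immune cells, had 9.36, 9.36 and 9.34 in AP and 9.18, 9.09 and 8.68 in HAP (0.37 ± 0.40), a narrow step, with 1.38 on its second probe set. The adenosine-degrading enzyme Ada differed by -0.17 ± 0.31 and Gjb2 by 0.04. Wnt5b, Il6 and Tnf did not pass the filter on low values, and no probe set named Adora3.

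The study's gene lists for wound healing and related processes were taken as the study gave them. The study compiled the EMT and early response lists by hand. It expanded those for wound healing, response to wounding and inflammation from Gene Ontology terms. These arrays served as its second experiment, and the lists are described here by counts alone. Of 201 measured wound healing genes, 119 lay above 0 with a median of 0.12, and AP was above HAP on all arrays for 31 (15.4%, against 7.3% of all genes) and below for 7 (3.48%, against 9.92%). At the unadjusted threshold, 7 were higher (3.48%, against 1.89%) and 2 lower (0.995%, against 2.49%). The broader response to wounding list had 211 of 386 above 0 (median 0.06), the inflammation list 132 of 283 (-0.02), the EMT list, for epithelial-mesenchymal transition, 97 of 169 (0.07), and its type 2 form 32 of 48 (0.16). Of the early response lists, early healing had 27 of 55 above 0 (-0.002) and early mechanotransduction 14 of 25 (0.16). The early mechanotransduction median ran from -0.04 to 0.25 when 1 array was left out. With centred arrays, where the median over all genes was 0.06, the wound healing median was 0.21 with 143 of 201 above 0. The inflammation list then had 168 of 283 above 0 (0.08). Centring moved both lists by the same amount as all genes. The wound healing median was 0.07 without AP replicate 3 or without HAP replicate 2, and 0.20 without AP replicate 1. The EMT median ran from 0.02 (without HAP replicate 1) to 0.12 (without AP replicate 1), that of its type 2 form was 0.10 without AP replicate 2, and that of response to wounding was 0.13 without AP replicate 1. In RA minus NORA the wound healing median was -0.11. Platelet genes had medians of 0.74 and -1.62 in these comparisons, and their part in the values of the study's lists was not tested. Cald1, a binder of actin and myosin, had 10.80, 11.23 and 11.77 in AP and 9.53, 9.36 and 10.25 in HAP (1.56 ± 0.56). Mtpn, a small regulator of actin capping, had 10.42, 10.21 and 10.34 in AP and 9.28, 9.34 and 9.96 in HAP (0.79 ± 0.27). Both lay apart in the groups. The separate list of TGF-beta, Smad and EMT factors had 8 of 20 above 0, a median of -0.06 and 0 members past the unadjusted threshold. With centred arrays its median was 0.03, against 0.06 over all genes. Snai1 and Zeb1, repressors of epithelial genes, differed by -1.04 (no overlap, at a low level) and -0.81 (with overlap).

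Single genes were named by rank among those with an unadjusted p under 0.05, a fold over 2, no overlap between the arrays and a level, where they stood higher, past the 60th percentile, which 47 genes higher and 29 lower in AP met. These values describe the choice. Higher in AP was Dusp1, a phosphatase that switches off MAP kinases, at 8.65, 8.63 and 8.75 in AP and 6.61, 7.81 and 7.43 in HAP (1.40 ± 0.36), although its brighter probe set differed by 0.34. Tpm2, a muscle-type tropomyosin, had 8.10, 8.55 and 9.74 in AP and 6.32, 6.75 and 7.32 in HAP (2.00 ± 0.65, second probe set 0.99, with overlap). Gsk3b, the kinase that restrains Wnt signalling and glycogen synthesis, had 10.06, 10.43 and 10.87 in AP and 9.25, 9.41 and 9.51 in HAP (1.06 ± 0.32). Their AP arrays agreed in lying above HAP, with AP replicate 3 the highest array for each. Qpct, which closes the N-terminal glutamine of peptides into a ring, differed by 1.56 ± 0.44, Loxl3, a lysyl oxidase relative, by 1.23 ± 0.36, and the myeloid and endothelial receptor Cd93 by 1.29, with 0.05 on its second probe set. Agpat5, Irf2bpl, Mindy2, Ppil3, Slc35e4, Cfap144 and Pkig complete this set with differences of 1.01 to 1.53. Second probe sets of Cfap144 and Agpat5 differed by 1.39 and 0.83. The value of Mindy2, 1.30, came from a probe set that the array design marks as prone to cross-hybridise, and its others differed by 0.46, -0.02, -0.20 and -0.35, while that of Irf2bpl overlapped, at 0.38.

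Lower in AP was Klf11, a Krüppel-like repressor, at 8.19, 7.24 and 8.47 in AP and 9.65, 8.96 and 9.66 in HAP (-1.45 ± 0.41). Its other probe sets differed by -1.15 and -0.70, so that all of them pointed the same way. Bhlhe22, a bHLH transcription factor known from neurons, had 10.40, 9.64 and 9.53 in AP and 10.71, 11.75 and 10.97 in HAP (-1.29 ± 0.43). Apbb2, an adaptor that binds the amyloid precursor protein, had 8.26, 8.33 and 8.14 in AP and 9.50, 9.19 and 9.05 in HAP (-1.0 ± 0.29), with -0.63 and -0.29 on its other probe sets. For several RNA-binding factors only 1 probe set carried the difference. Rbm8a, a core of the exon junction complex, differed by -1.02 ± 0.22 (second probe set -0.11), Celf1 by -1.28 ± 0.30 (others -0.09 to 0.29) and Mbnl1, a splicing regulator, by -3.27 ± 0.77 (others -0.28 to 0.39). Kif3c, a kinesin, differed by -2.36, with AP replicate 1 at 2.72 far below the other arrays. Maz, Fnbp1, Taf1b, Nufip2, Aifm3, Abcb10 and Coa7 differed by -1.51 to -1.04. Of these, Abcb10 had 0.29 on its other probe set, Nufip2 had -0.09, 0.04 and -0.01, Coa7 had -0.25, and Fnbp1 had -0.40 to -0.10, so that the named value was that of a single probe set.

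Against the untreated pair, the genes higher in AP than in HAP were mostly lower in RA than in NORA. Of those 47 genes, 43 (91.5%) had the opposite sign in RA minus NORA, with a median of 1.30 in AP minus HAP and -1.22 in RA minus NORA, and of the 29 lower ones 17 (58.6%) had it. Over all tested probe sets the opposite sign was found in 64.4%, and across them the correlation of the differences was r = -0.345 (rho = -0.366), over 18515 probe sets that are not independent. Loxl3 differed by -1.42, Gsk3b by -1.0, Tpm2 by -1.59, Cfap144 by -1.50 and Pkig by -1.03 in RA minus NORA. Exceptions in sign were Dusp1, at 0.97 there, Qpct at 0.75, Klra5 at 0.55 and Mindy2 at 0.44. The test of the difference between the comparisons called 0 probe sets in limma (lowest adjusted p 0.36), with 2423 (13.1%) at an unadjusted p of 0.05. Without NORA replicate 3, the array with the lowest mean correlation to the others (0.86), 40 of 47 (85.1%) had the opposite sign, against 60% of all probe sets, and r was -0.23.

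**Figure D5:**
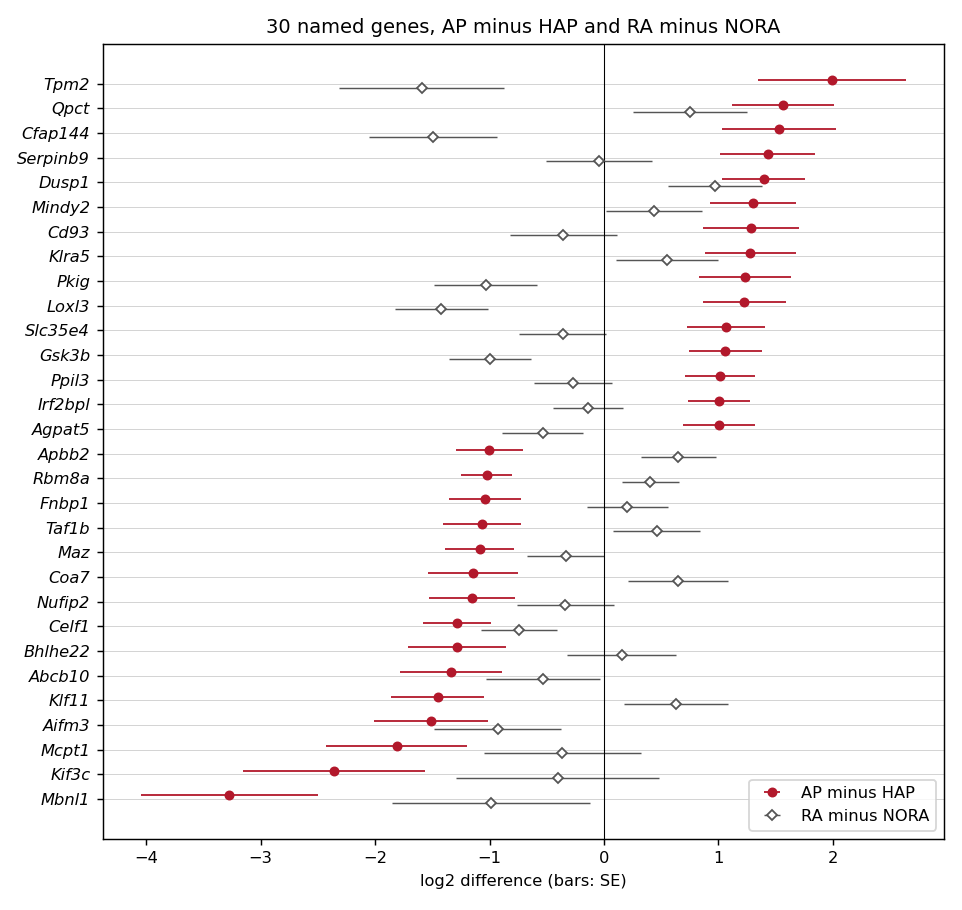
Log2 difference (x axis, bars ± SE) of the 30 named genes (y axis) in AP minus HAP (filled circles) and in RA minus NORA (open diamonds). Tpm2 has 2.00 in AP minus HAP and -1.59 in RA minus NORA, and the genes lower in AP have diamonds on both sides of 0.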

How the data were processed

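The authors hybridised RNA of rat blood mononuclear cells to Affymetrix rat230 2.0 arrays and made 1 MAS5 intensity per probe set with mas5 of the affy package (version not given in the sources used here). The deposited intensities are linear and share a trimmed mean of 500 per array. Detection calls were not used. The files hold no counts, so precision is set by how many arrays there are. Animals were killed at sampling, so each array is another rat, and p-values rest on the spread between arrays within all groups.

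Of 31042 probe sets (57 controls left out), the 18515 whose signal exceeded the median of its array at least 2 times in 14 were tested. In the annotation table, 20826 probe sets had 1 symbol, 436 several and 9780 none. Log2 signals without pseudocount were fitted with limma 3.58.1 (R 4.3.3), 1 mean per group over all 14 arrays with 9 residual degrees of freedom, tests two-sided, adjusted by Benjamini-Hochberg. The fit was tested on simulated data. With 3 arrays against 3, an exact permutation test cannot give p below 0.10, and none was run. Lists used the brightest probe set per gene (10107 genes). Lists of ribosomal, respiratory, proteasome and splicing genes were taken by name. No list was tested as a set.

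Genes were ranked by p among those with unadjusted p under 0.05, fold over 2, no overlap and a higher mean above the 60th percentile. Named were the first 15 per direction, 4 genes of lowest p per list, cell type markers and genes the study speaks of. Of the last, the study measured Adora2a, Adora3, Ada and S100a8 with S100a9 as serum proteins. It measured Fos, Wnt5b and Gjb2 in cultured joint cells. Genes outside this rule were chosen after their values were seen (the further ribosomal starts). The members, lists and alternatives were chosen with earlier results of these data known. Alternatives were other scalings, filters, a pseudocount of 32, array weights, other samples in the fit, a replicate block, leaving out each array, and a fit without moderation.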

Additional observations from a re-analysis of the deposited data

How the results depend on the processing

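The count of adjusted calls stayed at 0 in every alternative except the fit without moderation, which called 1 probe set without a gene symbol (-1.18, at 6.93, 7.20 and 6.97 in AP and 8.30, 8.31 and 8.04 in HAP, adjusted p 0.00574, against 0.165 with moderation). Of the counts at unadjusted p of 0.05 and fold of 2, the 150 higher in AP became 268 with centred arrays, 368 without a filter, 96 with the filter on 3 of the 6 AP and HAP arrays, 239 with those 6 arrays alone, 272 with array weights and 83 without moderation, and 103 to 275 when 1 array was left out. The 197 lower in AP became 711 without a filter, 124 with the stricter filter, 122 with a pseudocount of 32 and 313 with array weights, and 152 to 387 when 1 array was left out. The 1052 at an unadjusted p of 0.05 became 1936 with the 6 arrays alone and 2715 with array weights, and 578 to 1436 when 1 array was left out. The count of 890 probe sets lower in the difference from RA minus NORA, at p of 0.05 and fold of 2, was 542 to 1167 when 1 array was left out. The share of probe sets with AP all below HAP, 10.8%, was 6.21% with centred arrays, and the ribosomal median, -0.31, was -0.084 after quantile normalization. The causes were not tested.

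The titles number the replicates without stating a pairing of the arrays. Deviations of same-numbered AP and HAP arrays correlated at 0.05, 0.05 and 0.14, those of different numbers at -0.15 to 0.08. So few arrays cannot decide whether the numbers pair them. With the number as a replicate block, 0 probe sets were called (lowest adjusted p 0.295), 1277 had an unadjusted p of 0.05, and 146 were higher and 228 lower at the study's thresholds. For 88 single genes, 0 pairs of gene and alternative turned the sign or passed the adjusted threshold. Of 36 lists, 17 kept the sign of their median throughout. NK medians ran from 0.52 to 1.07, platelet medians from 0.47 to 0.96 and splicing medians from -0.33 to -0.12. With members above the 60th percentile of level alone, the median of basophil, mast cell and eosinophil genes was -1.81. The fit without MTXAP arrays, the check without NORA replicate 3 and the list counts were added after the data were seen. Genes near or under the array median, such as Bub1b, Mbnl1 and Kif3c, have uncertain levels.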
